A study of Mus musculus with 7 samples.

Results

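The nuclear genes described here encode the subunits of respiratory complex III, cytochrome c, complex IV (cytochrome c oxidase) and ATP synthase. They were listed by symbol, with earlier results of these data known. The list holds 9 genes of complex III, the cytochrome c gene Cycs, 11 genes of complex IV and 15 genes of ATP synthase. These 36 symbols matched 37 of the 55855 rows of the deposited table, because Atp5o has 2 annotated rows. RNA was sequenced from bone marrow hematopoietic stem cells (HSCs), the rare cells that renew themselves and form all blood lineages, of mice aged 2 months. The control libraries (n = 3) are labelled Fth1fl/fl (WT in the series text) and carry the floxed gene of ferritin heavy chain, the subunit that oxidizes and stores iron. The Fth1-deleted libraries (n = 4) are labelled Fth1△/△ and come from a conditional deletion in the blood system. The labels give no other allele or agent. The Cre driver, the surface markers of the sort and the sex of the mice are not stated in the labels. Whether the libraries stem from separate mice is not stated either, so the p-values measure spread between libraries, which may be technical.

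Electrons from complexes I and II reach complex III as reduced ubiquinone. Complex III passes them through its Rieske iron-sulfur center and the heme of cytochrome c1 to the soluble heme protein cytochrome c. Cytochrome c carries them to complex IV, where hemes and copper reduce oxygen to water. Both complexes pump protons, and ATP synthase lets the protons flow back to make ATP. Complexes III and IV and ATP synthase are built from nuclear subunits and a few subunits encoded by mitochondrial DNA. HSCs in the adult marrow are known to be mostly quiescent, to rely strongly on glycolysis and to raise respiration when they differentiate. Iron is needed for the hemes and iron-sulfur centers, and the study asked what iron handling by ferritin does in HSCs.

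Counted reads, recovered from the values, ranged from 12058392 to 15453168 per library. Levels are FPKM, the read number scaled by gene length and by the library's total. Fth1 itself was at 552, 659 and 638 FPKM in controls 1 to 3 and at 202, 333, 358 and 114 in Fth1-deleted libraries 1 to 4. The groups did not overlap, but the log2 difference of -1.42 (SE 0.33) did not pass the threshold (limma adjusted p = 0.193). Ribosomal RNA of nuclear genes, without mt-Rnr1 and mt-Rnr2, took 1.54% to 1.76% of reads in the Fth1-deleted libraries and 0.214%, 1.25% and 0.157% in the controls, so control 2 was the only control near the Fth1-deleted level (exact permutation p = 0.0286, two-sided, the smallest that 35 splits can give). Reads from Y-linked genes were present in control 2 (3347) and in Fth1-deleted 1, 2 and 3 (1797, 2195 and 2528) only. Male cells were thus unevenly spread over the groups. Of the 12 HSC markers listed, all had reads, and their summed level was 990 to 1698 FPKM in the controls and 696 to 968 in the Fth1-deleted libraries. Progenitor markers were higher, at a summed 193 to 362 against 73.1 to 115 FPKM, and Mpo among them had a log2 difference of 4.11 (limma adjusted p = 0.0803) and Dntt one of 2.36. Among markers of other cells, the summed B cell level was 24.3 to 87.8 against 12.1 to 26.2 FPKM (5 of 8 markers at 0 in all controls, among them Vpreb1 and Igll1, with log2 differences of 3.93 and 2.38) and the erythroid level 112 to 448 against 54.3 to 331 (Epor 0.85, Hbb-bt 2.34). Of the 7 tested erythroid markers, 6 were positive with a median of 0.35, and Hba-a1 went the other way (-0.265). The groups overlapped in each erythroid marker. The mature myeloid level was 157 to 231 against 154 to 262 FPKM (S100a9 2.26, Csf1r 1.71, with Adgre1 and Ltf at 0 in all controls). S100a9 was at 0 in controls 1 and 2 and Csf1r in controls 2 and 3. Most of that level came from Lyz2, which went the other way (-0.39), at 107 to 152 against 131 to 203 FPKM. The T and NK level was 79.6 to 140 against 22.4 to 117 FPKM (Nkg7 1.52, Klrb1c -1.30, Cd3d and Cd3g at 0 in all controls and Cd3e in every library). Nearly all of that level in the Fth1-deleted libraries came from Nkg7, at 75.6 to 140.3 FPKM. Klrb1c and Gzma (-1.18) were at 0 in each Fth1-deleted library. The part of ribosomal RNA, of sex and of these markers in the results below was not tested, except where a value is given.

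Most of the subunit genes were somewhat higher in Fth1-deleted HSCs, none by enough to pass the test. All 36 tested genes had a mean of at least 1 FPKM over the 7 libraries, the level required for testing, and 31 of the 36 (86.1%) had a positive log2 difference, against 48.7% of all 13948 tested genes. Their median log2 difference was 0.30, with quartiles of 0.14 and 0.46 and a range of -0.33 to 1.49, while the median over all tested genes was -0.02. No member passed the limma threshold of an adjusted p under 0.05, which 0.0287% of tested genes passed in the higher and 0.0287% in the lower direction (0.0574% in either). An unadjusted p under 0.05 was reached by 5 members, or 13.9%, all of them higher (Uqcrq, Uqcr11, Cycs, Atp5g3 and Atp5l), where the share over all tested genes was 4.9% higher and 4.93% lower (9.83% in either direction). That count was 2 without Fth1-deleted 4, 3 without Fth1-deleted 1, 8 without Fth1-deleted 3 and 12 with a term for Y-linked reads. The same 5 genes were higher in every Fth1-deleted than in every control library, where 4.1% of tested genes were, and Cox7a2l was lower in every one, where 5.55% of tested genes were. The values are from whole samples, so a change in the share of cells of a type and a change in RNA per cell cannot be told apart.

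**Figure D1:**
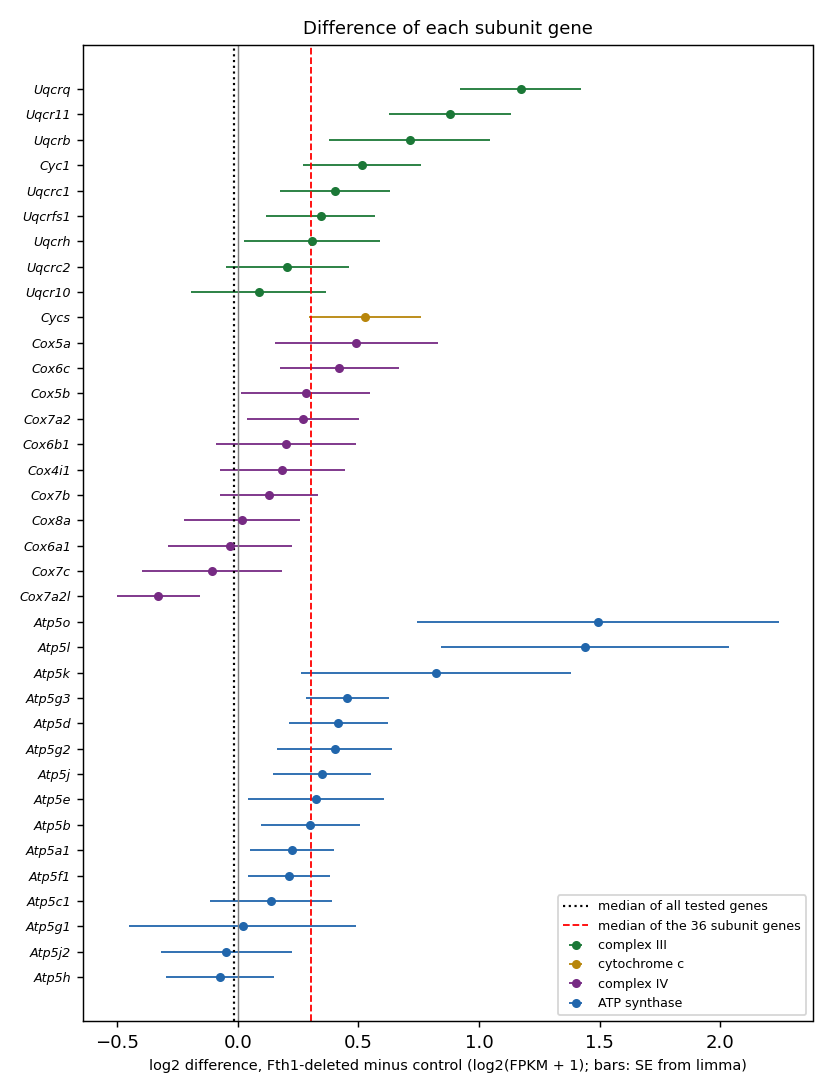
Log2 difference (Fth1-deleted minus control, log2(FPKM + 1) scale) of each of the 36 tested subunit genes, with points for the estimate and bars for the limma SE, grouped by complex. All 9 complex III genes lie to the right of 0, while 3 of 11 complex IV genes lie to the left; the dashed line is the members' median of 0.30 and the dotted line the median of all tested genes, -0.02.

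The size of that median depended on single libraries. Without control 2, the control with the most ribosomal RNA, it was 0.17 with 28 positive members, and without Fth1-deleted 4 it was 0.22 with 29. Rescaling FPKM to a fixed sum per library gave 0.23 with 29, and moved the median of all tested genes to -0.09, so that the members lay 0.32 above it, as without rescaling. With a covariate for the share of ribosomal RNA it was 0.47 with 29, and over the 5 libraries with high ribosomal RNA 0.43 with 31. In that last comparison, which was chosen after seeing the data, Uqcr11 passed the threshold (log2 difference 1.47, limma adjusted p = 0.0417, where all alternatives gave 0.0417 to 0.684). There 0.331% of tested genes were called higher, and the control group is the single library control 2, assumed to vary like the others.

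Promoter sequences are shown for 5 of the 6 genes whose groups did not overlap, because these are the members in which every library of a group lay on the same side. Each runs from 250 bases before to 50 after the RefSeq start (GRCm38.p6, minus strand, 5′ to 3′), and capitals mark matches to the motif strings searched.
Uqcr11 (chr10:80406772-80407071): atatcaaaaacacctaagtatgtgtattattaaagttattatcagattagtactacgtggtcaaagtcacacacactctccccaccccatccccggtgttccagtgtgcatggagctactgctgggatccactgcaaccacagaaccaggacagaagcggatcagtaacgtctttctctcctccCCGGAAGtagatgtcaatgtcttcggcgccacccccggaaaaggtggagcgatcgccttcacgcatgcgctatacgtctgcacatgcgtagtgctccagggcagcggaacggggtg
Cycs (chr6:50566520-50566819): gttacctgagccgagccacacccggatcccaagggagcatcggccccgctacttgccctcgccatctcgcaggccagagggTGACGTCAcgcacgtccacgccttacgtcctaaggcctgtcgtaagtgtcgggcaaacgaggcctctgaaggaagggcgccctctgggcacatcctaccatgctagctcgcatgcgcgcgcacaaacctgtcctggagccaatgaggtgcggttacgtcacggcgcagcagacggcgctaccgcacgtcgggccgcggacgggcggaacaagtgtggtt
Atp5g3 (chr2:73911277-73911576): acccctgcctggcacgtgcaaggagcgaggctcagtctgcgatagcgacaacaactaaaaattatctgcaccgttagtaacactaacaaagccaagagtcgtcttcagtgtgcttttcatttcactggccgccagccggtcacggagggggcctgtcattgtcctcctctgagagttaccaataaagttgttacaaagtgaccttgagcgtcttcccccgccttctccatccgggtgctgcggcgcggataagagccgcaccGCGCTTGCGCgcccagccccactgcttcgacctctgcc
Atp5l (chr9:44920693-44920992): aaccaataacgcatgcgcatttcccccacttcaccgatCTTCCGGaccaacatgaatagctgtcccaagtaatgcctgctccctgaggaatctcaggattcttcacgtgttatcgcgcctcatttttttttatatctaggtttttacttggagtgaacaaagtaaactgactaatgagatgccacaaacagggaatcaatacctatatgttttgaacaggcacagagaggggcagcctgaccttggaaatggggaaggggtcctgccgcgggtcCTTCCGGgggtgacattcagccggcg
Cox7a2l (chr17:83514284-83514583): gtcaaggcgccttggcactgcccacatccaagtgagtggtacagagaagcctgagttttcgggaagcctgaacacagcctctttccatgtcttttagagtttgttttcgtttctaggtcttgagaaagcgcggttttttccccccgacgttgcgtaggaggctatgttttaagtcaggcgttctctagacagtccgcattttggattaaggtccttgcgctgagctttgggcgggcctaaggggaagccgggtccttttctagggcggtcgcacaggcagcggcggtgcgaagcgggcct
The capitals are an ETS string in Uqcr11, a CRE in Cycs, an NRF1 string in Atp5g3 and 2 ETS strings in Atp5l, and the promoter of Cox7a2l holds no match. Whether the strings go with the direction of a difference was not tested.

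Respiratory chain promoters are known for binding sites of NRF1, of the ETS factor GABP (also called NRF2 in this field), of YY1 and of CREB. Strings for these were searched on both strands in the 32 RefSeq promoters of the 29 members that have an entry, each string counted whether or not it overlapped another. The NRF1 string, GCGCA and GCGC with any 1 base between them, was in 8 of 32 (25%), against 10.1% of the 12201 promoters of tested genes and 4.6% of all 32851. The ETS string CCGGAAG was in 10 (31.2%), against 17.9% and 8.86%. For the YY1 string AANATGGCG the count was 3 (9.38%, against 5.11% and 2.38%), and for the CRE string TGACGTCA it was 2 (6.25%, against 2.96% and 1.79%). At least 1 of the 4 strings was in 19 member promoters (59.4%), against 31.2% of those of tested genes. A match describes letters in this window and not a bound site. No entry was found for Atp5a1, Cox4i1, Cox6c, Cyc1, Uqcrb, Uqcrc2 and Uqcrq.

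Complex III genes were higher on the whole in Fth1-deleted HSCs. All 9 had a positive log2 difference (7 of the 9 without control 2 or with the ribosomal RNA covariate), with a median of 0.40 and a range of 0.09 to 1.17. For 2 of the 9 (22.2%), both higher, the unadjusted limma p was under 0.05. Over all tested genes it was for 4.9% in the higher and 9.83% in either direction. The summed level of the 9 genes was 1100 ± 246 FPKM in control (SD, n = 3) and 1467 ± 215 in Fth1-deleted libraries (SD, n = 4), a ratio of 1.33. In this sum the groups overlapped, with control 1 (1312 FPKM) above Fth1-deleted 2 (1271), and control 2 was the lowest (830).

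Uqcrq (ENSMUSG00000044894, chromosome 11, 53427922 to 53430831, minus strand) encodes a small membrane subunit beside cytochrome b, the homolog of yeast Qcr8. Its level was 67.3, 47.5 and 40.2 FPKM in controls 1 to 3 and 118.7, 102.0, 91.6 and 158.2 in Fth1-deleted libraries 1 to 4. Every Fth1-deleted library was above every control, with a gap from 67.3 to 91.6. The mean was 2.28-fold higher, 118 ± 29.3 against 51.7 ± 14.02 FPKM, and the log2 difference of 1.17 (SE 0.25) was the largest in complex III (limma adjusted p = 0.182). Across all alternatives the log2 difference of Uqcrq stayed between 1.012 and 1.49, with adjusted p from 0.0960 to 0.684.

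Uqcr11 (ENSMUSG00000020163, chromosome 10, 80402997 to 80406830, minus strand) encodes the smallest subunit of the complex. Its FPKM was 82.8, 53.0 and 118.4 in the controls and 165.2, 130.7, 145.4 and 156.2 in the Fth1-deleted libraries. The groups did not overlap, although the controls spread over a wider range than the Fth1-deleted libraries. The log2 difference came to 0.88 (SE 0.25, limma adjusted p = 0.298). A processed pseudogene, Gm16418, shares 38.4% of the Uqcr11 transcript, so part of its reads may be counted in either place. It was at 34.96, 2.332 and 45.59 FPKM in the controls and at 45.03, 20.61, 47.03 and 63.62 in the Fth1-deleted libraries. The lead of Fth1-deleted 2 over control 3 in Uqcr11 is smaller than the opposite lead in Gm16418. In their sum the groups would thus overlap, and the separation of Uqcr11 is uncertain. Uqcrb, a subunit at the matrix side near the ubiquinone pocket, was at 38.0, 38.8 and 45.7 FPKM in the controls and at 84.4, 59.0, 36.6 and 112.2 in the Fth1-deleted libraries. Fth1-deleted 3 was below all controls and the other Fth1-deleted libraries above them (log2 difference 0.71, SE 0.33, limma adjusted p = 0.520). Copies of Uqcrb elsewhere share 62.8% of its transcript.

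Of the redox subunits, Cyc1, cytochrome c1, was at 222, 105 and 113 FPKM in the controls and at 207, 188, 187 and 209 in the Fth1-deleted libraries. Control 1 was the highest of the 7 and the other 2 controls the lowest, so the groups overlapped while the Fth1-deleted libraries lay close together (SD 12.3 against 65.5 FPKM; log2 difference 0.51, SE 0.24, limma adjusted p = 0.528). Uqcrfs1, the Rieske iron-sulfur protein, was at 63.9, 78.5 and 60.9 FPKM in the controls and at 93.1, 70.0, 73.6 and 112.4 in the Fth1-deleted libraries. Control 2 lay above Fth1-deleted 2 and 3, and the log2 difference came to 0.34 (SE 0.23, limma adjusted p = 0.657). With the ribosomal RNA covariate it was -0.02.

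Uqcrc1, a large core subunit facing the matrix, was the most abundant gene of complex III. Its FPKM was 313, 177 and 256 in the controls and 285, 278, 303 and 438 in the Fth1-deleted libraries. Fth1-deleted 4 stood above the rest, the groups overlapped, and the log2 difference came to 0.40 (SE 0.23, limma adjusted p = 0.607). Its partner core subunit Uqcrc2 had a log2 difference of 0.21, the hinge protein gene Uqcrh, whose product contacts cytochrome c1, one of 0.31, and the small subunit gene Uqcr10 one of 0.09. In these 3 genes the groups overlapped.

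Cycs (ENSMUSG00000063694, chromosome 6, 50562563 to 50566538, minus strand) encodes somatic cytochrome c, which carries electrons and also triggers caspases when released from mitochondria. It was at 38.4, 53.1 and 35.8 FPKM in the controls and at 66.9, 54.6, 55.4 and 67.5 in the Fth1-deleted libraries. All 4 Fth1-deleted libraries were above all controls, by a narrow margin over control 2. The mean was 1.44-fold higher (42.5 ± 9.31 and 61.1 ± 7.10 FPKM; log2 difference 0.53, SE 0.23, limma adjusted p = 0.490). Over all alternatives its log2 difference ranged from 0.02 to 0.70. Cycs has 14 annotated copies of near-identical sequence that together cover 33.7% of its transcript, and their summed level was 6.97 to 9.37 FPKM in the controls and 8.65 to 46.3 in the Fth1-deleted libraries, where 38.5 of the 46.3 came from 1 miRNA entry, Gm25197, in Fth1-deleted 2. The testis form Cyct was at 0 in every library.

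**Figure D2:**
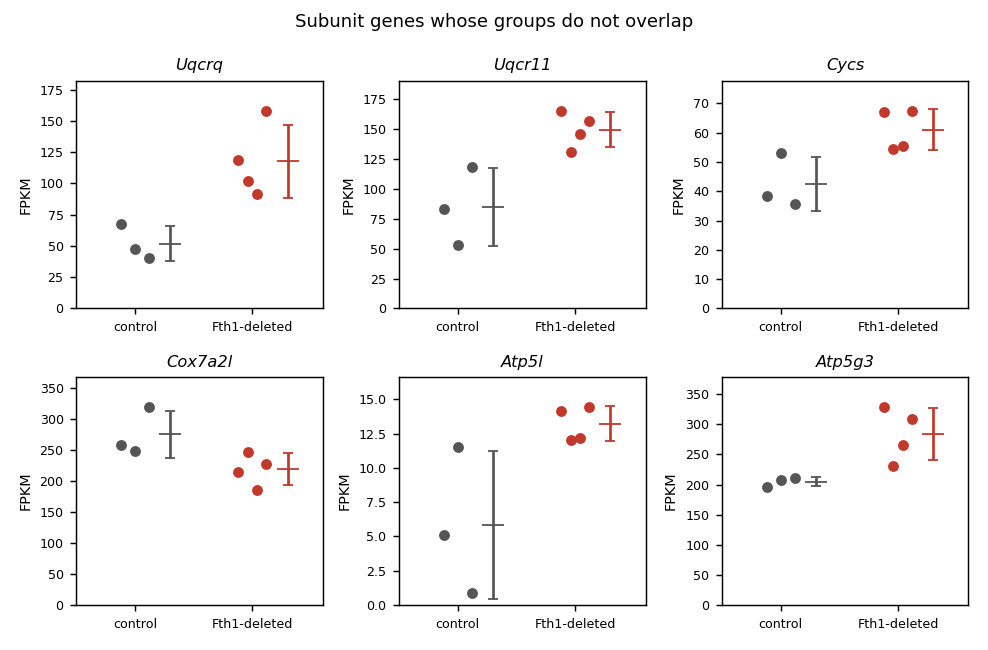
FPKM in each library (points) of the 6 subunit genes whose control (n = 3) and Fth1-deleted (n = 4) libraries do not overlap, with the mean and SD beside them; axes start at 0. Uqcrq runs from 40.2 to 67.3 in the controls and 91.6 to 158.2 in the Fth1-deleted libraries, and Cox7a2l is the 1 gene with lower Fth1-deleted values.

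Complex IV genes were mixed. The log2 difference was positive in 8 of 11 and negative in 3, with a median of 0.19 and a range of -0.33 to 0.49, and none had an unadjusted p under 0.05. Their summed level was 2199 ± 238 FPKM in the controls and 2342 ± 557 in the Fth1-deleted libraries, a ratio of 1.07. Their Fth1-deleted libraries differed widely, with sums of 2781, 2037, 1711 and 2839 FPKM, and Fth1-deleted 3 was the lowest of all 7 libraries for 5 of the 11 genes.

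Cox7a2l (ENSMUSG00000024248, chromosome 17, 83501918 to 83517330, minus strand) encodes a relative of COX7A2 that joins complexes III and IV in supercomplexes. It was at 258, 248 and 319 FPKM in the controls and at 214, 247, 186 and 227 in the Fth1-deleted libraries. Every Fth1-deleted library was below every control, though Fth1-deleted 2 and control 2 were nearly equal. The log2 difference came to -0.33 (SE 0.17, limma adjusted p = 0.579). A processed pseudogene, Gm6969, shares 31.2% of the Cox7a2l transcript. It was at 17.1, 1.94 and 0.485 FPKM in the controls and at 0.757, 8.59, 6.39 and 4.94 in the Fth1-deleted libraries. The lead of control 2 over Fth1-deleted 2 in Cox7a2l is smaller than the opposite lead in Gm6969. In their sum the groups would thus overlap, and the separation of Cox7a2l is uncertain. Cox7a2, which holds the corresponding place in free complex IV, was at 117, 87.1 and 62.2 FPKM in the controls and at 99.1, 89.96, 113 and 115 in the Fth1-deleted libraries. Its groups overlapped (log2 difference 0.27, SE 0.23, limma adjusted p = 0.727). The ratio of Cox7a2l to Cox7a2 was 2.20, 2.85 and 5.12 in the controls and 2.16, 2.74, 1.64 and 1.97 in Fth1-deleted HSCs, so the groups overlapped in the ratio too and control 3 stood above the rest.

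Cox5a, an early assembling subunit, was the least abundant of the complex IV genes. It was at 27.0, 29.6 and 35.1 FPKM in the controls and at 59.8, 38.2, 23.8 and 62.9 in the Fth1-deleted libraries, with Fth1-deleted 3 the lowest of the 7 and the other Fth1-deleted libraries above all controls (log2 difference 0.49, SE 0.34, limma adjusted p = 0.668). Cox6c, a membrane subunit, was at 59.9, 73.6 and 68.3 FPKM in the controls and at 131.0, 79.0, 65.9 and 96.5 in the Fth1-deleted libraries. Fth1-deleted 3 again stood apart, within the control range, and the other 3 lay above it (log2 difference 0.42, SE 0.25, limma adjusted p = 0.619). Cox6a1, the widely expressed form of subunit 6A, was the most abundant, at 362, 314 and 440 FPKM in the controls and 357, 331, 244 and 586 in the Fth1-deleted libraries. Its groups overlapped fully and the log2 difference of -0.03 (SE 0.26, limma adjusted p = 0.977) changed sign in 8 alternatives.

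The other 6 genes of complex IV had log2 differences of 0.28 for the zinc-binding subunit Cox5b, 0.20 for Cox6b1, which lies on the side where cytochrome c docks, 0.19 for Cox4i1, 0.13 for Cox7b, 0.02 for Cox8a and -0.11 for Cox7c. All had overlapping groups. Copies of Cox7c cover 54.0% of its transcript, and exons of Cox4i1 overlap another gene on the opposite strand over 9.9% of their length.

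ATP synthase has a soluble F1 head, where Atp5a1 and Atp5b form the catalytic ring, and a membrane Fo part with a ring of subunit c. Of its 15 genes, 13 had a positive log2 difference, with a median of 0.32 and a range of -0.07 to 1.49. For 2 of the 15 (13.3%), Atp5g3 and Atp5l, both higher, the unadjusted limma p was under 0.05. Over all tested genes it was for 4.9% in the higher and 9.83% in either direction. The summed level of the 15 genes was 3430 ± 545 FPKM in the controls and 4190 ± 785 in the Fth1-deleted libraries, a ratio of 1.22. Here too the groups overlapped, with controls 1 and 3 (3790 and 3696 FPKM) above Fth1-deleted 2 (3263).

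In the F1 head, Atp5b, the catalytic beta subunit, was the most abundant of all 36 members. It was at 1248, 860 and 1305 FPKM in the controls and at 1475, 1049, 1371 and 1702 in the Fth1-deleted libraries. Fth1-deleted 2 fell among the controls and the other 3 lay above them (log2 difference 0.30, SE 0.20, limma adjusted p = 0.667). Atp5a1, the alpha subunit, was at 615, 518 and 648 FPKM in the controls and at 717, 552, 694 and 827 in the Fth1-deleted libraries. The same library, Fth1-deleted 2, fell among the controls (log2 difference 0.22, SE 0.17, limma adjusted p = 0.703). The ratio of Atp5a1 to Atp5b was 0.493, 0.603 and 0.497 in the controls and 0.486, 0.526, 0.506 and 0.486 in Fth1-deleted HSCs, so the catalytic pair kept a similar ratio in 6 libraries and control 2 stood above them.

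Atp5d, the delta subunit of the central stalk, was at 239, 156 and 205 FPKM in the controls and at 307, 247, 210 and 301 in the Fth1-deleted libraries. The overlap came from control 1 and Fth1-deleted 3 (log2 difference 0.42, SE 0.20, limma adjusted p = 0.540). The gamma and epsilon subunit genes Atp5c1 and Atp5e had log2 differences of 0.14 and 0.32. Atp5o (ENSMUSG00000022956), which encodes the oligomycin sensitivity protein of the peripheral stalk, was counted at the lowest level of any tested member, at 0.434, 0.601 and 5.37 FPKM in the controls and 2.44, 7.30, 15.5 and 3.77 in the Fth1-deleted libraries. These are 4 to 132 reads per library, control 3 lay above Fth1-deleted 1 and 4, and the log2 difference came to 1.49 (SE 0.75, limma adjusted p = 0.554). A second Atp5o row (ENSMUSG00000116933), whose exons are fully overlapped by Donson and Atp5o, was at 0 in every library, where 3 reads would be worth 0.366 to 0.469 FPKM. Exons of the tested Atp5o row overlap other genes over 47.9% of their length and a copy shares 76.7% of its transcript, so its level is uncertain.

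The c ring is made of 1 mature protein encoded by 3 genes. Atp5g3 (ENSMUSG00000018770, chromosome 2, 73908447 to 73911326, minus strand) was at 196, 207 and 211 FPKM in the controls and at 329, 232, 266 and 309 in the Fth1-deleted libraries. The groups did not overlap, and the controls lay close together. The mean was 1.38-fold higher (205 ± 7.75 and 284 ± 43.5 FPKM; log2 difference 0.45, SE 0.17, limma adjusted p = 0.436), and the log2 difference stayed between 0.36 and 0.55 in all alternatives. Atp5g2 was at 283, 166 and 282 FPKM in the controls and at 357, 281, 239 and 401 in the Fth1-deleted libraries. Fth1-deleted 2 and 3 lay among the controls, with control 2 lowest (log2 difference 0.40, SE 0.24, limma adjusted p = 0.621). Atp5g1 was at 33.6, 29.4 and 14.9 FPKM in the controls and at 29.1, 9.67, 30.1 and 44.4 in the Fth1-deleted libraries. Its groups overlapped fully, the log2 difference came to 0.02 (SE 0.47, limma adjusted p = 0.991), and it changed sign in 9 alternatives.

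In sum the 3 subunit c genes were at 475 ± 62.7 FPKM in the controls and 632 ± 120 in the Fth1-deleted libraries. Atp5g3 gave 43.8% ± 6.90 of this sum in the controls and 45.2% ± 3.66 in the Fth1-deleted libraries, Atp5g2 50.6% ± 8.19 and 50.4% ± 4.197, and Atp5g1 5.60% ± 2.34 and 4.36% ± 1.86, so the shares differed by less than the spread between libraries. The whole annotated Atp5g2 transcript has identical copies, Gm10175 and Gm10231, at a summed 8.75 to 14.3 FPKM in the controls and 9.91 to 21.5 in the Fth1-deleted libraries, while Atp5g3 has none. A processed pseudogene, Gm10039, matches Atp5g1 over 411 bases at 99.8% identity and was counted at 105, 88.1 and 75.1 FPKM in the controls and at 174, 137, 133 and 129 in Fth1-deleted HSCs, more than Atp5g1 in every library and without overlap of the groups. The level and share of Atp5g1 are therefore uncertain.

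Among the small membrane subunits, Atp5l (ENSMUSG00000038717, chromosome 9, 44912557 to 44920742, minus strand), subunit g, was at 5.13, 11.6 and 0.855 FPKM in the controls and at 14.2, 12.04, 12.2 and 14.4 in the Fth1-deleted libraries. The Fth1-deleted libraries were close together and all above the controls, which spread over more than their own mean (log2 difference 1.44, SE 0.60, limma adjusted p = 0.467). With the ribosomal RNA covariate the log2 difference was -0.54. A processed pseudogene on chromosome 5, Gm10221, is identical to Atp5l over 309 bases and was counted at 72.3, 19.6 and 37.0 FPKM in the controls and 69.9, 74.9, 37.4 and 55.5 in the Fth1-deleted libraries, more than Atp5l in every library. The sum of Atp5l and its copies was 78.1, 32.6 and 41.6 FPKM in the controls and 86.8, 89.0, 51.6 and 74.97 in the Fth1-deleted libraries, and in that sum the groups overlapped. Atp5k, subunit e, had a log2 difference of 0.82 (SE 0.56), with 12.6 to 53.6 FPKM in the controls and 16.4 to 85.2 in the Fth1-deleted libraries. Of the remaining genes, Atp5j (0.35), Atp5f1 (0.21), Atp5j2 (-0.05) and Atp5h (-0.07) had overlapping groups. Gm10250, a pseudogene, shares 77.6% of the Atp5h transcript.

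**Figure D3:**
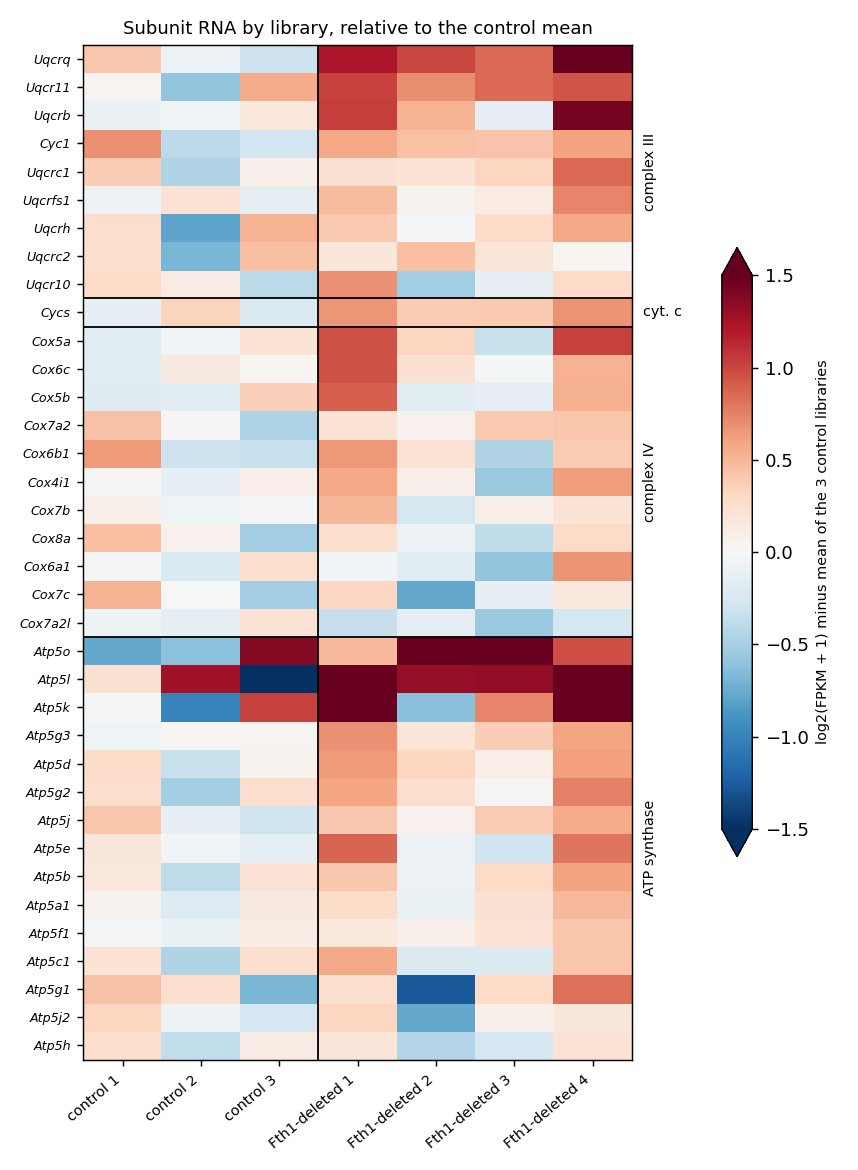
Each row is a tested subunit gene and each column a library; color shows log2(FPKM + 1) minus the mean of the 3 controls, with values beyond 1.5 drawn at the end of the scale. The columns of Fth1-deleted 1 and 4 are red in most rows, with medians of 0.53 and 0.59, while Fth1-deleted 2 and 3 are mixed, with medians of 0.06 and 0.11.

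Fth1-deleted 1 and 4 were the libraries with the highest values. Relative to the control mean, the median over the 36 members was 0.19, -0.12 and 0.07 in controls 1 to 3 and 0.53, 0.06, 0.11 and 0.59 in Fth1-deleted libraries 1 to 4, on the log2(FPKM + 1) scale. Fth1-deleted 4 was the highest of the 7 libraries for 17 members and Fth1-deleted 1 for 10, while control 2 was the lowest for 12. Fth1-deleted 2 and 3 lay within the control range of this median. Members took 0.614%, 0.471% and 0.580% of all reads in the controls and 0.731%, 0.545%, 0.587% and 0.796% in the Fth1-deleted libraries. The FPKM of all genes also summed highest in Fth1-deleted 4 and 1, at 832400 and 801800, against 740400 to 763200 in the other 5 libraries.

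**Figure D4:**
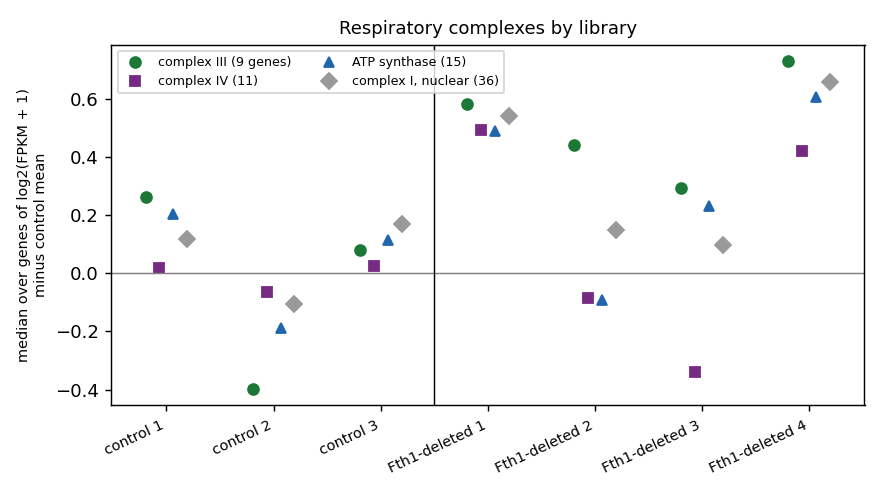
For each library, points give the median over the genes of a complex of log2(FPKM + 1) minus the control mean. In Fth1-deleted 2 and 3 complex III is at 0.44 and 0.29 while complex IV is at -0.08 and -0.34; in Fth1-deleted 1 and 4 all points are above those of the controls.

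The complexes separated in Fth1-deleted 2 and 3. There the complex III median was 0.44 and 0.29, the ATP synthase median -0.09 and 0.23, and the complex IV median -0.08 and -0.34. The median coefficient of variation between libraries was 22.2% in the controls and 22.7% in the Fth1-deleted libraries for the 34 members with a mean of at least 20 FPKM, against 25.03% and 21.1% for all 6482 such genes. Across the 36 members, log2 difference and mean FPKM had a Spearman rho of -0.435, and log2 difference and transcript length one of 0.128. These describe genes from the same 7 libraries, which are not independent. The 22 members with under 10% of their sequence shared with copies or overlapping genes had a median of 0.29, and 20 of the 22 were positive.

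Nuclear genes of complexes I and II showed similar values. Of 36 nuclear complex I genes, 31 had a positive log2 difference, with a median of 0.34, and all 4 complex II genes did, with a median of 0.29. None passed the threshold. By library the complex I median was 0.12, -0.11 and 0.17 in the controls and 0.54, 0.15, 0.10 and 0.66 in the Fth1-deleted libraries, the same order of high and low Fth1-deleted pairs as in the members. Ndufs5 (log2 difference 0.88, SE 0.34) was higher and Ndufa7 (-0.80, SE 0.26) lower in every Fth1-deleted than in every control library, at limma adjusted p of 0.440 and 0.362. In all, 2 of the 36 (5.56%) were higher and 1 (2.78%) lower without overlap. Over all tested genes the shares were 4.1% and 5.55%, so these counts are near the background. Sdhc and Sdhd, the membrane anchors of complex II, had log2 differences of 0.36 and 0.36.

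Other isoforms of complex IV subunits were mostly low. The 10 genes listed also include Cyct, a form of cytochrome c, and Ndufa4, which is not an alternative form. Of the 10, 4 had a mean of at least 1 FPKM, and Cox4i2 and Cox7a1 among them reached it through the Fth1-deleted libraries alone. Cox6b2, known as a testis form of subunit 6B, was at 61.9, 92.5 and 69.5 FPKM in the controls and at 157, 218, 62.3 and 185 in the Fth1-deleted libraries. Fth1-deleted 3 lay among the controls and the other 3 were above them (log2 difference 0.93, SE 0.36, limma adjusted p = 0.444). Its share of the summed Cox6b1 and Cox6b2 level was 15.3%, 34.2% and 28.4% in the controls and 31.2%, 45.9%, 27.9% and 39.1% in the Fth1-deleted libraries, and the groups overlapped. Cox4i2, known from lung and from cells in low oxygen, was at 1.09, 0 and 0 FPKM in the controls and at 10.6, 0, 0 and 9.16 in the Fth1-deleted libraries 1 to 4, so its reads came almost entirely from the pair of libraries in which the members were highest. Ndufa4, now counted as a complex IV subunit, had a log2 difference of 0.48 (SE 0.29). Cox8b, Cox8c and Cox7b2 were at 0 in every library.

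Assembly factors were mixed. Of 22 tested complex IV assembly genes (26 listed), 16 were positive with a median of 0.23, and 4 higher and 1 lower had an unadjusted p under 0.05, where 48.7%, 4.9% and 4.93% of all tested genes did. The 1 lower gene is thus near the share over all genes. Coa6, which helps to bring copper to subunit COX2, was at 16.9, 14.3 and 6.83 FPKM in the controls and at 26.6, 35.9, 34.4 and 29.1 in the Fth1-deleted libraries. Its groups did not overlap (log2 difference 1.32, SE 0.35, limma adjusted p = 0.266). Surf1, which acts in the insertion of heme a into COX1, was at 50.4, 76.0 and 55.1 FPKM in the controls and at 39.2, 39.1, 26.1 and 38.6 in the Fth1-deleted libraries. It was lower in every Fth1-deleted library (log2 difference -0.74, SE 0.26, limma adjusted p = 0.400). Neither passed the threshold. Of the 22 tested genes, 2 (9.09%) were higher and 1 (4.55%) lower without overlap, against 4.1% and 5.55% of all tested genes.

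Of the complex III assembly genes, Bcs1l, which moves the Rieske protein across the inner membrane, had a log2 difference of -0.31 (SE 0.31), and Lyrm7, which holds it beforehand, one of 1.14 (SE 0.85) at 0 to 7.50 FPKM, reaching a mean of 1 FPKM through the Fth1-deleted libraries alone. For ATP synthase, 5 of 8 listed genes were positive with a median of 0.23. Usmg5, a small protein of the ATP synthase dimer, was at 29.2, 20.9 and 33.9 FPKM in the controls and at 41.5, 40.5, 42.5 and 54.3 in the Fth1-deleted libraries, without overlap (log2 difference 0.67, SE 0.26, limma adjusted p = 0.444). It was the 1 gene of these 8 (12.5%) higher without overlap, against 4.1% of all tested genes. Atpaf2, which assists the alpha subunit in assembly, had a log2 difference of 0.40 (SE 0.23). Slirp, Sco2 and Pet117 of these lists were listed at 0 in every library, and 97.8%, 91.8% and 100% of their exon length is overlapped by other genes.

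Of the regulators of mitochondrial gene expression, 7 of 13 tested genes (14 listed) were positive with a median of 0.01. Polrmt, the mitochondrial RNA polymerase, was at 22.6, 18.7 and 21.3 FPKM in the controls and at 50.5, 46.9, 37.1 and 36.4 in the Fth1-deleted libraries. Its groups were well apart (log2 difference 0.99, SE 0.26, limma adjusted p = 0.255), yet it did not pass the threshold. Polrmt was the 1 gene of the 13 (7.69%) higher without overlap, against 4.1% of all tested genes. Tfam, which packages mitochondrial DNA and starts its transcription, had a log2 difference of 0.36 (SE 0.22).

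The mitochondrially encoded partners of the members were not higher. All 6 subunits of complexes III, IV and ATP synthase encoded by mitochondrial DNA had a negative log2 difference, with a median of -0.37, and none passed the threshold. That median depends on mt-Co2, mt-Co3 and mt-Atp6, which have SEs of 1.28 to 1.42 and split the libraries across the groups, as given below. mt-Cytb, the cytochrome b of complex III, was at 1530, 1791 and 1941 FPKM in the controls and at 1750, 1528, 1389 and 2150 in the Fth1-deleted libraries. Its groups overlapped fully (log2 difference -0.05, SE 0.18, limma adjusted p = 0.939), and its sign changed in 4 alternatives, quantile normalization among them (0.02). mt-Co1, the heme-bearing core of complex IV, was at 4238, 3778 and 4267 FPKM in the controls and at 3856, 2950, 3652 and 4421 in the Fth1-deleted libraries, also overlapping (log2 difference -0.15, SE 0.17, limma adjusted p = 0.796).

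The other 4 split the libraries in a way that crossed the groups. mt-Co2 was at 2468, 69.0 and 77.1 FPKM in the controls and at 73.2, 60.8, 1750 and 77.3 in the Fth1-deleted libraries. mt-Co3 was at 1894, 35.8 and 40.8 FPKM and at 42.5, 34.5, 1361 and 38.0, and mt-Atp6 at 1672, 33.9 and 46.6 and at 36.3, 31.8, 1188 and 35.8. Control 1 and Fth1-deleted 3 were thus high in each, and the other 5 libraries were low. mt-Atp8, at up to 4.21 FPKM, was also highest in that pair of libraries, and so were mt-Nd3 and mt-Nd4l of complex I. Their log2 differences of -0.59 (mt-Co2, SE 1.28), -0.59 (mt-Co3, SE 1.42), -0.72 (mt-Atp6, SE 1.38) and -0.13 (mt-Atp8, SE 0.87) changed sign in 3 alternatives each.

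mt-Co2, mt-Co3 and mt-Atp6 have copies on chromosome 1, Gm28661, Gm28437 and Gm10925, with no mismatch over 681, 783 and 678 bases. Gm28661 was at 35.9, 61.7 and 58.2 FPKM in the controls and 60.4, 49.0, 38.4 and 66.9 in the Fth1-deleted libraries, lowest in the pair of libraries in which mt-Co2 was high. Of mt-Co1, 31.3% is shared with Gm29216 at 99.8% identity and its whole length with Gm13340 on chromosome 2 at 97.6%, and mt-Cytb has no copy. How the authors counted reads that fit both places is not given in the sources used here, and the part of the copies in the split was not tested. Without the pair that stood apart, a choice made after seeing the data, the nuclear members' median log2 difference was 0.45 and 35 of 36 were positive. That pair held the control with the highest member median (0.19) and a low Fth1-deleted library (0.11). Leaving it out therefore raises the difference by itself. Reads from mitochondrial genes made up 2.00%, 1.18% and 1.46% of all reads in the controls and 1.37%, 1.07%, 1.48% and 1.56% in the Fth1-deleted libraries (two-sided exact permutation p = 0.543).

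**Figure D5:**
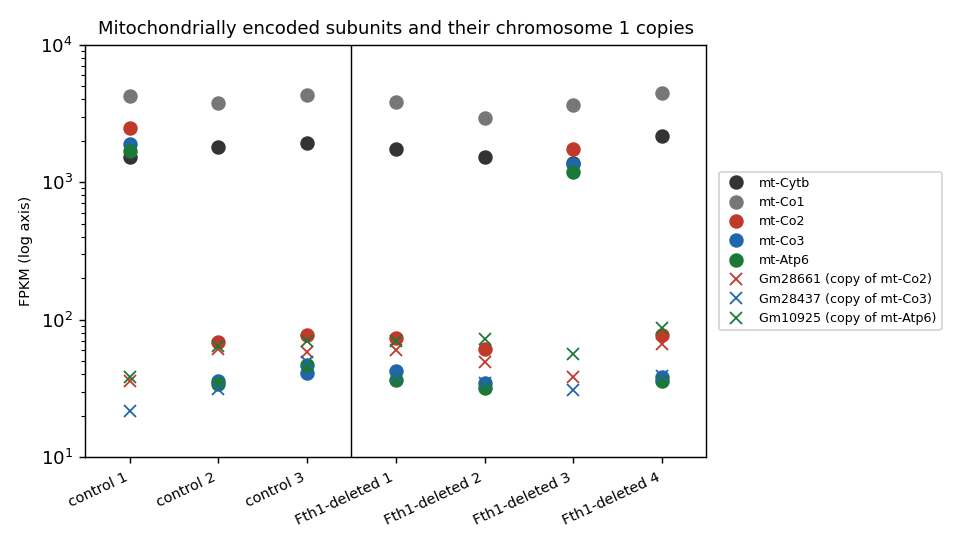
FPKM (log axis) by library of 5 mitochondrially encoded subunit genes (filled circles) and of the chromosome 1 copies of 3 of them (crosses). mt-Co2, mt-Co3 and mt-Atp6 are at 1188 to 2468 FPKM in control 1 and Fth1-deleted 3 and at 31.8 to 77.3 in the other 5 libraries, while mt-Cytb and mt-Co1 are at 1389 to 4421 in all 7.

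For complex I, the mitochondrially encoded genes gave 3 positive of 7, with a median of -0.01. mt-Nd2 and mt-Nd6 had log2 differences of 0.25 (SE 0.18) and 0.26 (SE 0.18), and the mitochondrial ribosomal RNA genes mt-Rnr1 and mt-Rnr2 had -0.15 and -0.15.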

How the data were processed

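Deposited values are FPKM, made by the authors from each gene's length and its counted reads, per the series text. Reads were aligned to GRCm38 with HISAT2 2.0.4 and counted with HTSeq 0.9.1, per the submitters' processing notes. The labels give polyA RNA, 1 µg per library and the NEBNext Ultra RNA kit. The annotation release, the strand setting and any filter are not given in the sources used here. Of 55855 gene identifiers, 55480 were matched to GENCODE mouse M21.

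Depth was recovered from FPKM times the mean transcript length: 98.8% to 99.4% of values worth fewer than 50 reads were whole within 0.05 reads. A floor of 3 reads covers counting error only. The median member had 1582 reads per library and the lowest 4.

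Genes with a mean of at least 1 FPKM (13948) were tested on log2(FPKM + 1) by a two-sided limma-trend fit without covariates (limma 3.58.1, R 4.3.3). Benjamini-Hochberg adjustment ran over all of them, and 0.05 was the threshold. Each log2 difference is the Fth1-deleted mean minus the control mean on that scale, which understates the change of low genes. The members and lists were chosen with earlier results of these data known, so no list was tested as a set. Genes named with values by library are Fth1, the 4 smallest p, the most and least abundant member and the redox, catalytic, subunit c and supercomplex genes of each complex, members whose groups did not overlap and the mitochondrially encoded partners; other lists give the genes past the threshold or the 2 with the smallest p. Sco2, Slirp, Pet117, Cox4i2, Cyct, mt-Nd3, mt-Nd4l, Cd3d, Cd3e, Cd3g, Adgre1, Ltf, Lyz2, Gzma, Hba-a1 and Cox7a1, and the isoforms at 0, were named after their values were seen. A gene that the rule names among the markers is not reported here. Uqcr10, Uqcrh and the other members are given by log2 difference. Copies are annotated transcripts aligned at 97% identity or more over at least 100 bases. The 24 alternatives covered pseudocount, filter, scaling, model terms and libraries left out; both restrictions to 5 libraries were chosen after seeing the data.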

Additional observations from a re-analysis of the deposited data

Results flagged for a closer look

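Among the 56 genes named by the rule, 10 had 1 Fth1-deleted library far from the other 3. Chance alone flags about 1 in 20 independent groups. These genes share the same libraries and are not independent, so that rate cannot be set against their count. Fth1-deleted 3 was the highest for mt-Co2 (1750 FPKM), mt-Co3 (1361), mt-Atp6 (1188) and mt-Atp8 (4.21). The same library was the lowest for mt-Nd6 (181.6 FPKM) and Surf1 (26.1). Fth1-deleted 4 was the highest for Uqcrc1 (438.2 FPKM), Usmg5 (54.31), Sdhd (157.2) and Ndufs5 (116.3). Uqcrc1 is the 1 nuclear subunit of complexes III, IV and ATP synthase in this group.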

How the results depend on the processing

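Over 24 alternatives, the members' median log2 difference was 0.17 (without control 2) to 0.47 (ribosomal RNA covariate), with 27 to 35 of 36 positive and no member called, except Uqcr11 (1 member) over the 5 libraries with high ribosomal RNA. The median was 0.27 to 1.08 in complex III, 0.05 to 0.38 in complex IV and 0.17 to 0.48 in ATP synthase. Over all genes, where 4 higher and 4 lower passed, the counts were 0 and 0 with no filter, with the replicate block and over the 5 libraries with low mt-Co2. They were 10 and 7 with no trend, 16 and 1 with the ribosomal RNA covariate, 7 and 10 with the Y-linked term and 46 and 188 over the 5 libraries with high ribosomal RNA. With limma-voom on the recovered reads 0 were higher. Leaving out 1 library gave 0 to 13 higher and 0 to 6 lower. Fth1 was at -1.74 with the Y-linked term (limma adjusted p = 0.0491, where all alternatives gave 0.0491 to 0.684). The cause of these changes was not tested.

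Replicate numbers do not pair the libraries: same-numbered correlations of deviations were 0.01, 0.06 and -0.04, and 1 control of 3 correlated best with its own number. With the replicate block, in which Fth1-deleted 4 has no partner, the members' median was 0.22, 29 were positive and none was called.

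Single genes changed sign under some alternatives. With the ribosomal RNA covariate these were Cox6a1 (0.25), Atp5l (-0.54), Uqcrfs1 (-0.022), Atp5g1 (-0.54), mt-Co2 (1.63), mt-Co3 (1.91), mt-Atp6 (1.86), Lyrm7 (-0.34), Klrb1c (0.45), mt-Rnr1 (1.37) and mt-Rnr2 (1.45). Over the 5 libraries with high ribosomal RNA they were Cox6a1 (0.20), Atp5g1 (-0.23), mt-Co2 (1.18), mt-Co3 (1.37), mt-Atp6 (1.30), mt-Atp8 (0.074), mt-Rnr1 (0.88) and mt-Rnr2 (0.91). With the Y-linked term they were Cox6a1 (0.24), mt-Cytb (0.039), mt-Rnr1 (0.24) and mt-Rnr2 (0.22), and over the 5 libraries with low mt-Co2 Cox6a1 (0.14), mt-Rnr1 (0.40) and mt-Rnr2 (0.37). Atp5g1 changed sign also in TPM (-0.056), with the replicate block (-0.25) and with limma-voom (-0.0009), Cox6a1 with library weights (0.0073) and mt-Cytb with quantile normalization (0.017). With 1 library left out, Cox6a1 ranged from -0.26 to 0.16, Atp5g1 from -0.32 to 0.45, mt-Cytb from -0.17 to 0.037, mt-Co2 from -1.74 to 1.10, mt-Co3 from -1.87 to 1.28, mt-Atp6 from -1.98 to 1.07, mt-Atp8 from -0.60 to 0.14, mt-Rnr1 from -0.66 to 0.28 and mt-Rnr2 from -0.67 to 0.26.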
